A study of Mus musculus with 48 samples.

Results

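The miR-195a and miR-497a cluster is a pair of neighbouring mouse microRNA genes. The members described here are its mature strands mmu-miR-195a-5p, mmu-miR-497a-5p and mmu-miR-497a-3p (the prefix stands for Mus musculus and is left out below), 3 of the 1409 entries of the deposited small RNA count tables. They were selected on their falls in the lavage fluid of allergic mice, the largest there, so their values in that contrast are given as a description without a test. The study sequenced small RNA from 48 libraries of C57BL/6 mice in 4 compartments, and each compartment was sampled in an untreated, an immunized and an allergic group. Cell-free bronchoalveolar lavage fluid (the supernatant of a wash of the airways with PBS, freed of cells by spinning) had 3 untreated, 4 immunized and 7 allergic libraries, and so did the pelleted lavage cells and the serum. Lung epithelial brushings had 1 untreated, 2 immunized and 3 allergic libraries, each from 1 to 3 mice, and each serum library came from 1 mouse.

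The untreated mice received nothing. The immunized mice were injected weekly into the peritoneum with 50 ug of ovalbumin, a chicken egg protein used as a model allergen, in alum, and then had PBS placed in the airway 3 times. The allergic mice had the same injections and then 50 ug of ovalbumin placed in the airway on 3 days, so immunized and allergic mice shared the sensitization and differed in the airway dose. Immunized and allergic mice were sampled on day 4 after the first airway dose. The counts were deposited in 3 sets of libraries. Set 2 held every untreated library, sets 3 and 4 shared the immunized ones, and allergic mice occurred in each set. Untreated and immunized libraries are together called non-allergic below. The labels leave unsaid whether equal replicate numbers in 2 compartments mean 1 mouse.

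MicroRNAs are short RNAs that guide Argonaute proteins to messenger RNAs, mostly by pairing of the seed (bases 2 to 8) with a site in the target. miR-195a-5p and miR-497a-5p belong to the miR-15/16 family, which is known for restraining the cell cycle and survival through targets such as cyclins, the checkpoint kinase Chek1 and Bcl2. MicroRNAs outside cells travel in vesicles or bound to proteins, and lavage fluid holds such RNA from the cells that line and enter the airway.

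The mature sequences are shown first because the 5p strands carry the family seed and the 3p strand does not. They are from RefSeq (GRCm38.p6), written 5′ to 3′ with the seed in capitals.
miR-195a-5p: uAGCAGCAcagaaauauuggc
miR-497a-5p: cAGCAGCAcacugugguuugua
miR-497a-3p: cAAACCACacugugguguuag

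miR-195a-5p and miR-497a-5p had the same bases in the seed and differed at 9 of 21 positions over their full length. Among the 1679 mature mouse miRNAs of the table, 10 had this seed, and no other had that of miR-497a-3p. The relatives below are shown because they share the seed and were read in the same libraries, where they set the level of the family.
miR-16-5p: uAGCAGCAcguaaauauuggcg
miR-15a-5p: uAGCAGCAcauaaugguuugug
miR-15b-5p: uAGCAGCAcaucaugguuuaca
miR-322-5p: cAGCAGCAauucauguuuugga

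miR-16-5p differed from miR-195a-5p at 2 of 21 positions, and miR-15a-5p at 6. No source used here gives the way reads that fit more than 1 entry were divided, so a share of miR-195a-5p counts could belong to miR-16-5p. All 144 counts of the 3 members were whole numbers, whereas 4.40% of all values in the tables were not. The paralogue miR-195b, which shares the first 16 bases with miR-195a-5p, had 0 counts in every lavage library and 7 counts elsewhere (2 in brushings, 5 in serum).

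Both genes lie on the plus strand of chromosome 11 (GRCm38), Mir497 at chr11:70234717-70234800 and Mir195a at chr11:70235042-70235135, with 241 bases between them. The annotation (GENCODE vM21) places neither inside a protein-coding gene. The nearest, 0610010K14Rik and Gm21988, lie 70 bases away on the minus strand, and Bcl6b lies 4918 bases away on the other side. Mir497b overlaps Mir497 on the opposite strand. The hairpins are shown because they place the arms, in capitals, that were counted.
Mir497: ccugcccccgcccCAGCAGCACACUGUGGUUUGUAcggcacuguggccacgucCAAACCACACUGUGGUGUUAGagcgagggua
Mir195a: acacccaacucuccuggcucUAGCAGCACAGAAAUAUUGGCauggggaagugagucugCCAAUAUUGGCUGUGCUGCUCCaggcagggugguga

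Lavage fluid libraries held 135707 to 561803 miRNA counts in total, and lavage cell libraries 43087 to 960796. The totals of serum libraries were 137638 to 2738223 and those of brushings 113004 to 654157. Levels are counts per 1000000 counts (CPM) scaled with TMM factors over all 48 libraries, so a level is a share of a library's miRNA counts and not an amount per volume or per cell. A count of 0 allows up to 3 counts, which is 5.34 to 22.1 CPM in a lavage fluid library and 3.12 to 69.6 CPM for the cells before TMM scaling, for counting error only.

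In lavage fluid miR-195a-5p was low in the allergic mice. The untreated libraries held 476, 1250 and 2732 CPM, and the immunized libraries 815, 571, 795 and 2131 CPM. The 7 allergic libraries had a lowest level of 134, a median of 297 and a highest of 481 CPM. Every allergic library but 1 lay below every non-allergic one, and the exception exceeded the lowest untreated library by a few CPM. With the lavage fluid libraries scaled on their own, all 7 lay below (highest allergic 503, lowest non-allergic 528 CPM), which held for 0.791% of the entries tested on that scale.

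miR-497a-5p had untreated levels of 211, 1462 and 612 CPM and immunized levels of 296, 192, 320 and 805 CPM. The allergic libraries ranged from 80.3 through a median of 112 to 190 CPM. All 7 lay below the lowest non-allergic library on this scale, the highest of them by a narrow margin (190 against 192 CPM). With lavage fluid scaled alone 5 of 7 did so. The share of entries with every allergic library below every non-allergic one was not counted over the 48 libraries scaled together. With lavage fluid scaled alone that share was 0.791%, and miR-497a-5p was not among those entries.

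miR-497a-3p, the opposite arm of the same hairpin, was read far less. It had 4, 71 and 25 counts in the untreated, 14, 8, 5 and 29 in the immunized and 3, 1, 3, 0, 6, 1 and 1 in the allergic libraries. The sums were 156 counts in the 7 non-allergic and 15 in the 7 allergic libraries, and the groups overlapped.

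**Figure D1:**
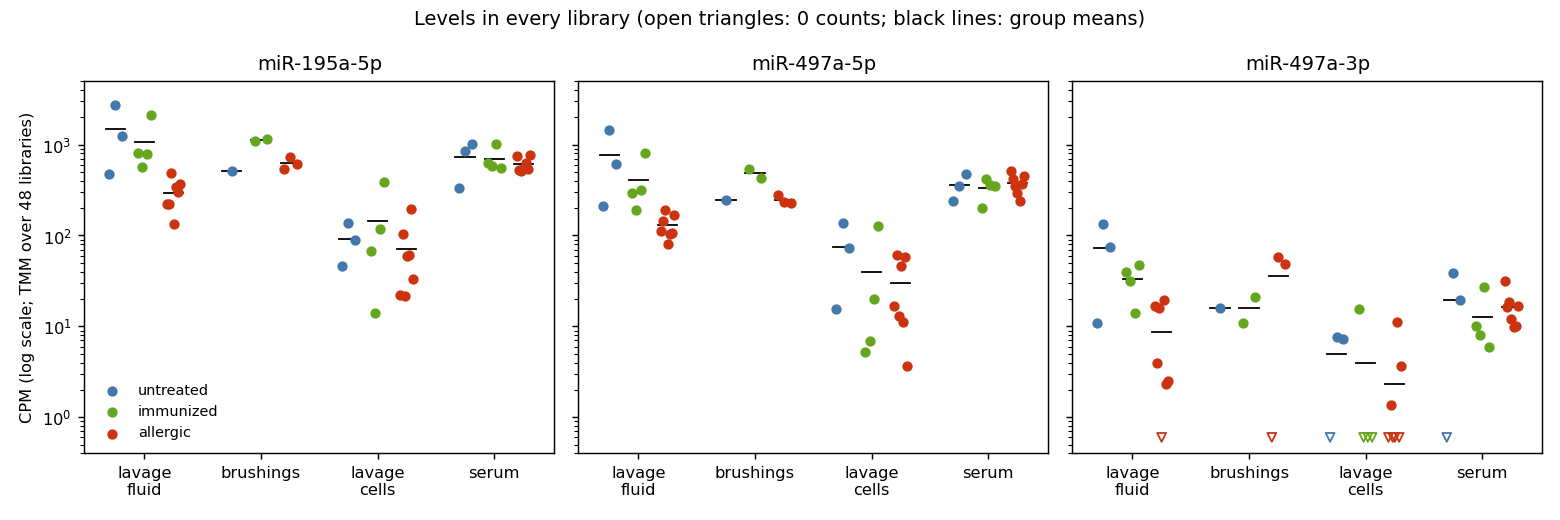
CPM of each member (log scale) in every library of the 4 compartments, coloured by group, with black lines at group means and open triangles at 0 counts. In lavage fluid the allergic libraries of miR-195a-5p sit between 134 and 481 CPM, whereas in serum the 3 groups overlap, and lavage cells are lowest in every group.

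The selecting contrast itself gave log2 fold changes of −2.09 (SE 0.35) for miR-195a-5p and −2.05 (SE 0.36) for miR-497a-5p, the 2 lowest of 253 entries tested. Just outside stood miR-122-5p, a liver microRNA, at −1.83, miR-351-5p at −1.73 and miR-322-3p at −1.69. In this compartment 33.2% of entries were called, meaning an adjusted p under 0.05 by edgeR's quasi-likelihood test. miR-497a-3p did not pass the filter on low counts, and the fit without the filter gave −2.59 (SE 0.45).

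The direction of the fall was the same within each library set. The members were picked on falls compared within these sets, so the shared direction is a description and no separate check. The share of all entries that kept their direction in every set was not counted. For miR-195a-5p the mean log2 difference was −2.17 in set 2, −1.64 in set 3 and −1.94 in set 4. For miR-497a-5p it was −2.09, −1.33 and −1.86, and for miR-497a-3p −1.91, −1.75 and −1.95. Sets 3 and 4 held 2 allergic and 2 immunized libraries each, and set 2 held 3 allergic and 3 untreated ones.

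Markers of several cell types moved in the same libraries. The summed level of 5 fibroblast and smooth muscle microRNAs ranged from 6690 to 20772 CPM in non-allergic and from 3856 to 10014 CPM in allergic lavage fluid. That of the 2 endothelial miR-126a strands ranged from 1134 to 5414 and from 655 to 1562 CPM. The 7 hematopoietic microRNAs went the other way, from 2282 to 6304 and from 9697 to 34435 CPM, as did the 5 erythroid entries, from 2683 to 13816 and from 11429 to 143956 CPM. Of these markers only miR-486a-3p was at 0 in every lavage fluid library. The summed level of 8 epithelial microRNAs overlapped almost entirely (70239 to 206229 against 88577 to 195136 CPM). The untreated library with the highest member levels, replicate 2, also had the highest fibroblast and endothelial sums. The same held among immunized libraries for replicate 4 (13616 and 2321 CPM). Among allergic libraries replicate 3 had the highest miR-195a-5p and miR-497a-5p, whereas the fibroblast sum was highest in replicate 5 (10014 against 7449 CPM in replicate 3) and the endothelial sum in replicate 6 (1562 against 1310 CPM). The part of these shifts in the member levels was not tested. In such cell-free bulk libraries fewer cells of a type, less RNA released per cell and more RNA from other sources cannot be told apart.

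The comparison of allergic with non-allergic libraries was then made in the compartments that did not choose the members, and no member was called there. In lavage cells miR-195a-5p was sparse. It held 46.3, 137 and 88.2 CPM (3, 18 and 12 counts) in the untreated and 67.7, 13.9, 116 and 386 CPM (13, 2, 23 and 101 counts) in the immunized libraries. The allergic libraries had a lowest, median and highest level of 21.4, 59.6 and 195 CPM, within the non-allergic range. The log2 fold change was −0.47 (95% interval −1.55 to 0.62, edgeR adjusted p 0.441), where 56.2% of 217 entries were called. Within sets it was −0.78, 0.51 and −0.92, so the direction in set 3 was opposite to the others. With scaling by total count it was −0.997 (edgeR adjusted p 0.0941), while the median of all entries moved from 0.04 to −0.31.

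miR-497a-5p and miR-497a-3p did not pass the filter in lavage cells. miR-497a-5p had 1, 18 and 10 counts in the untreated, 1, 1, 4 and 33 in the immunized and from 1 to 44 in the allergic libraries. Without the filter its log2 fold change was −0.49 (95% interval −1.39 to 0.42, edgeR adjusted p 0.535). miR-497a-3p had 5 counts over 7 non-allergic and 4 over 7 allergic libraries.

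In serum the allergic libraries lay within or near the range of the non-allergic ones. miR-195a-5p held 331, 841 and 1012 CPM in untreated and 624, 578, 1017 and 556 CPM in immunized serum, and 512, 541 and 764 CPM were the lowest, median and highest of the allergic libraries. The log2 fold change was −0.28 (95% interval −0.82 to 0.27, edgeR adjusted p 0.767). miR-497a-5p held 241, 354 and 475 CPM in untreated, 199, 421, 357 and 351 CPM in immunized and 240, 364 and 506 CPM (lowest, median, highest) in allergic serum. Its log2 fold change was 0.03 (95% interval −0.48 to 0.55, edgeR adjusted p 0.949), and that of miR-497a-3p was −0.09 (−0.89 to 0.71, edgeR adjusted p 0.949). The signs of these last values changed with scaling by total count. No entry of 347 was called in serum by edgeR (0%), and 27 had an unadjusted p under 0.05. DESeq2 called 0 as well.

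In brushings the levels of miR-195a-5p were highest in the immunized libraries. It held 510 CPM in the untreated, 1108 and 1153 CPM in the immunized and 538, 730 and 617 CPM in the allergic libraries, so the untreated library lay below all allergic ones on this scale. With brushings scaled alone the lowest allergic library (579 CPM) lay below the lowest non-allergic one (610 CPM). The log2 fold change was −0.42 (95% interval −0.99 to 0.15, edgeR adjusted p 0.775), with 2.94% of 306 entries called. miR-497a-5p held 247 CPM in the untreated, 537 and 431 CPM in the immunized and 277, 235 and 229 CPM in the allergic libraries. Its log2 fold change was −0.61 (95% interval −1.27 to 0.04, edgeR adjusted p 0.595). Without the untreated library it was −0.84 (edgeR adjusted p 0.0133). The allergic library of set 2 then had no non-allergic library in its set and added nothing to the contrast. That value thus rests on sets 3 and 4, with 1 allergic and 1 immunized library each. Within sets the log2 differences were 0.02 in set 2, −0.95 in set 3 and −0.77 in set 4.

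miR-497a-3p in brushings went the other way in 2 of 3 allergic libraries. It had 6 counts in the untreated, 6 and 15 in the immunized and 0, 37 and 23 in the allergic libraries. As a share of all miR-497a counts this was 6% (exact 95% interval 2.23 to 12.6), 1.99% (0.735 to 4.29) and 4.62% (2.61 to 7.50) without allergy. In the allergic libraries it was 0 of 33, which allows up to 9.09%, then 19.9% (14.4 to 26.4) and 17.6% (11.5 to 25.2). The intervals cover counting error only. The fitted change in level was a log2 fold change of 1.38 (95% interval −0.54 to 3.30, edgeR adjusted p 0.779), and the library at 0 had the lowest depth of the brushings.

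**Figure D2:**
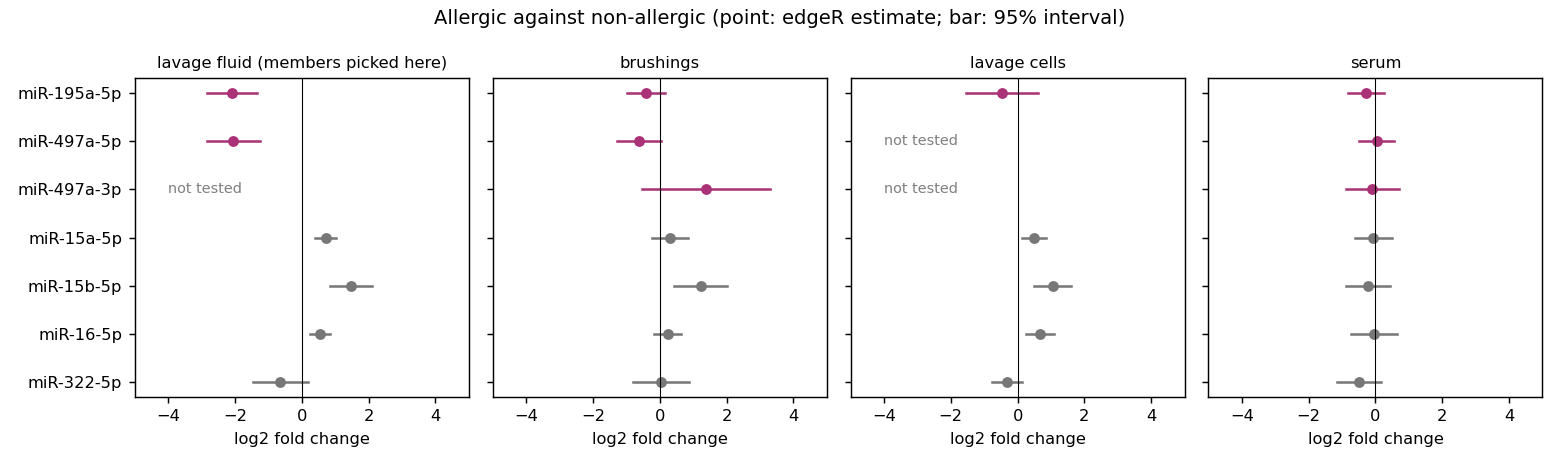
log2 fold change of allergic against non-allergic libraries for the members (purple) and 4 relatives with the same seed (grey), with 95% intervals, by compartment. In lavage fluid the members lie near −2 while miR-15a-5p, miR-15b-5p and miR-16-5p lie above 0, and in serum every interval crosses 0.

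Whether the allergic change differed between these 3 compartments was tested as an interaction. The difference for miR-195a-5p between serum and lavage cells was 0.13 (95% interval −0.96 to 1.22, edgeR adjusted p 0.890), where 24.3% of 415 entries were called. Between brushings and lavage cells it was 0.02 (−1.30 to 1.34, edgeR adjusted p 1), with 8.43% called. Between brushings and serum it was −0.11 (−1.43 to 1.21, edgeR adjusted p 1), with 0% called by edgeR, 4 entries called by DESeq2 and 23 at an unadjusted edgeR p under 0.05. miR-497a-5p and miR-497a-3p were not called in any of the 3. These intervals are wide, and lavage fluid was left out because it had chosen the members.

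Among non-allergic libraries the cluster was high in lavage fluid, brushings and serum and low in lavage cells. The mean level of miR-195a-5p was 1253 ± 859 CPM in lavage fluid (SD, n = 7), 923 ± 359 in brushings (n = 3), 708 ± 257 in serum (n = 7) and 122 ± 123 in lavage cells (n = 7). miR-497a-5p followed the same order of compartments with 557 ± 458, 405 ± 147, 343 ± 95.6 and 54.9 ± 57.2 CPM. For miR-195a-5p the ranges in lavage fluid (476 to 2732 CPM), brushings (510 to 1153 CPM) and serum (331 to 1017 CPM) overlapped. The place of lavage fluid in the order is a description, because its non-allergic libraries helped to pick the members. Brushings and serum had no called difference for miR-195a-5p or miR-497a-5p, which does not show equal levels. Lavage cells were lower than brushings and serum for miR-195a-5p and miR-497a-5p by the tests given next. In the allergic groups the mean of miR-195a-5p was 628 ± 96.4 CPM in brushings (n = 3), 608 ± 108 in serum (n = 7), 295 ± 115 in lavage fluid (n = 7) and 71.1 ± 62.1 in lavage cells (n = 7), so lavage fluid stood below serum there.

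Lavage cells differed from serum by a log2 fold change of −2.73 for miR-195a-5p (6.65-fold lower, SE 0.44, edgeR adjusted p 5.31e-06) and −2.81 for miR-497a-5p (SE 0.53, edgeR adjusted p 5.02e-05), with 68% of 356 entries called. Brushings exceeded lavage cells by 2.90 for miR-195a-5p (7.46-fold, SE 0.51, edgeR adjusted p 2.68e-05) and 2.93 for miR-497a-5p (SE 0.62, edgeR adjusted p 2.16e-04), with 62.1% called. Brushings and serum differed by 0.17 (95% interval −0.88 to 1.21, edgeR adjusted p 0.791) and 0.12 (−1.08 to 1.31, edgeR adjusted p 0.875), with 64% called. The filter for these pairs ran over all compartments together, where a high level elsewhere helps an entry to pass. Within lavage cells alone miR-497a-5p did not pass, with 68 counts over the 7 non-allergic libraries. Its values against lavage cells are therefore not independent of the filter.

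miR-497a-3p was lower in lavage cells than in serum by a log2 fold change of −1.81 (edgeR adjusted p 0.0452). That call was lost with scaling by total count (−1.20, edgeR adjusted p 0.188) and when any 1 of 10 of the 24 libraries was left out (edgeR adjusted p up to 0.118). Its difference between brushings and lavage cells was 1.71 (edgeR adjusted p 0.104), and 2.83 (edgeR adjusted p 0.0201) without immunized lavage cell replicate 1. miR-497a-3p had 5 counts over the 7 non-allergic lavage cell libraries, with 4 of these at 0, and passed the filter through the other compartments. That favoured a low value for lavage cells in advance, so these calls are not independent of the filter.

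Pairs with lavage fluid use the same non-allergic libraries as the rule that picked the members, and a high level there favours being picked, so their values are not independent of it. Lavage fluid exceeded lavage cells by 3.28 for miR-195a-5p (9.75-fold, SE 0.45), 3.14 for miR-497a-5p (8.79-fold, SE 0.53) and 3.15 for miR-497a-3p (SE 0.74), where 68.3% of entries were called and 37.9% called higher. Against serum the values were 0.55, 0.32 and 1.34, with 77% of entries called, and against brushings 0.39, 0.21 and 1.44, with 11.2% called. With scaling by total count the difference of miR-195a-5p from serum rose to 1.35, while the median of all entries moved from −0.04 to 0.70. Without untreated lavage fluid replicate 2 that of miR-497a-3p from serum was 0.96.

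The ratio of the 2 guide strands, miR-497a-5p to miR-195a-5p, was on average below 1 in every compartment. miR-497a-5p was counted 0.417 times as often as miR-195a-5p in non-allergic lavage fluid, 0.445 times in brushings, 0.396 times in lavage cells and 0.497 times in serum (from mean log2 ratios of −1.26 ± 0.24, −1.17 ± 0.22, −1.34 ± 1.14 and −1.01 ± 0.49, SD, n = 7, 3, 7 and 7). None of the 6 pairs of compartments differed by a two-sided exact permutation test (unadjusted p 0.238 to 0.867, all adjusted p 0.867). The largest difference among them was −0.33 on the log2 scale, between lavage cells and serum. The test pooled untreated and immunized libraries and did not include library set. Pairs with lavage fluid use non-allergic libraries that helped to pick the members, so their values are not independent of the rule. The lavage cell ratios rest on 68 counts of miR-497a-5p and 172 of miR-195a-5p over 7 libraries. The lack of a difference by this test does not show equal ratios. The mean log2 ratio was −1.03 in untreated and −1.43 in immunized lavage fluid, and −0.49 and −1.97 in lavage cells. In serum it was −0.93 and −1.07, and in brushings −1.04 (1 library) and −1.23. Group and library set cannot be told apart in these differences. A ratio within a library does not depend on how libraries are scaled. In allergic libraries it was 0.458 in lavage fluid, 0.397 in brushings, 0.419 in lavage cells and 0.609 in serum.

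The 5p strand was the main product of both hairpins. Over all libraries miR-497a-3p made up 5.71% of 7674 + 465 miR-497a counts, and miR-195a-3p made up 0.812% of 15757 + 129 miR-195a counts. In lavage fluid miR-195a-3p had 11 counts in the non-allergic and 0 in the allergic libraries, beside 4086 and 585 counts of miR-195a-5p.

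The members were a small part of the pool of microRNAs that carry their seed, and that part differed by compartment. In each library the counts of miR-195a-5p and miR-497a-5p were set against all counted miRNAs with the seed, most of which were miR-16-5p (58.6% to 81.5%). The members made up 2.02%, 11.5% and 5.16% of the family in the 3 untreated lavage fluid libraries and from 1.20% to 5.75% in the immunized ones. In the allergic lavage fluid libraries the lowest, median and highest shares were 0.358%, 0.599% and 1.25%, and the highest of them exceeded the lowest immunized share. In non-allergic lavage cells the share was 0.0287% to 0.607%, in serum 0.455% to 1.56% and in brushings 1.74% to 3.75%. In allergic brushings it was 1.25%, 1.60% and 2.04%.

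**Figure D3:**
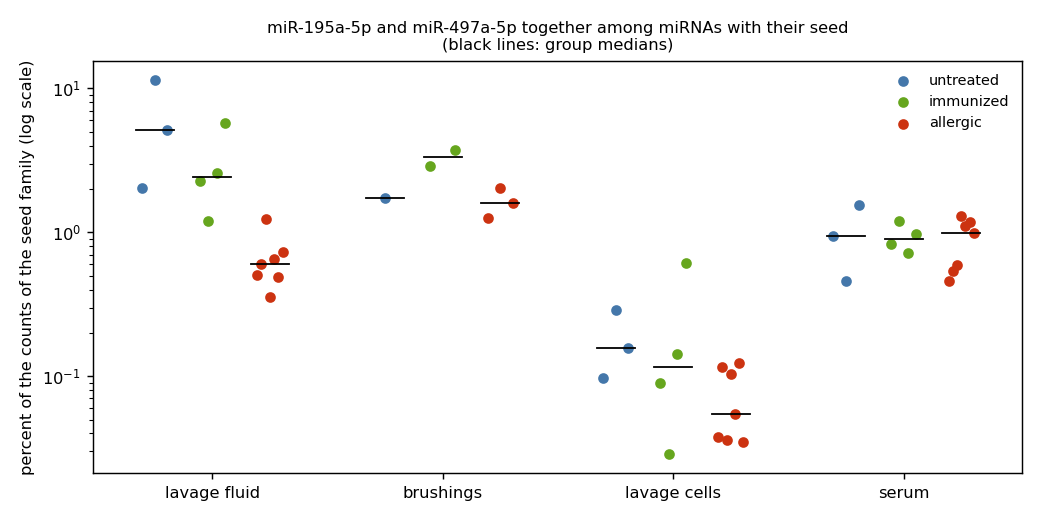
Percent of the counts of all miRNAs with the seed of miR-195a-5p that were miR-195a-5p or miR-497a-5p, per library on a log scale, by compartment and group, with black lines at group medians. Allergic lavage fluid has a median of 0.599% against 5.16% in untreated lavage fluid, and lavage cells lie lowest.

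Of the relatives, miR-15a-5p, miR-15b-5p and miR-16-5p rose in allergic lavage fluid. The family list held 11 names, of which 9 were listed and 7 passed the filter there. It includes miR-503-5p, miR-103-3p and miR-107-3p, which are counted with the family but whose seeds differ from the members'. Of the 7, 3 rose in allergic lavage fluid, where 19% of entries were called higher, and 1 fell, where 14.2% were called lower. The list's median log2 fold change was 0.38, against 0.01 over all entries. miR-15b-5p rose by 1.47 (SE 0.29, edgeR adjusted p 0.00256), miR-15a-5p by 0.71 (edgeR adjusted p 0.00316) and miR-16-5p, which is abundant in blood cells, by 0.55 (edgeR adjusted p 0.00940). miR-503-5p fell by 1.28 (edgeR adjusted p 0.0498), a call lost under 12 of 22 alternatives (edgeR adjusted p up to 0.137), and miR-322-5p, its neighbour on chromosome X, had −0.65 (edgeR adjusted p 0.221).

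In lavage cells the same 3 rose, where 29.5% of entries were called higher, and none of the 7 fell, with a median of 0.27 against 0.04 over all entries. There miR-15b-5p rose by 1.05 (edgeR adjusted p 0.00356), miR-16-5p by 0.68 (edgeR adjusted p 0.00855) and miR-15a-5p by 0.49 (edgeR adjusted p 0.0237). With scaling by total count miR-16-5p was 0.25 (edgeR adjusted p 0.281) and miR-15a-5p 0.11 (edgeR adjusted p 0.607) there, and both calls were lost. Without immunized replicate 3 miR-15a-5p was 0.46 (edgeR adjusted p 0.0509). None of the list was called in serum or brushings. Between non-allergic lavage fluid and lavage cells 6 of the 7 relatives were lower in the fluid, where 30.3% of entries were, with a median of −0.94 against 0.12. miR-15b-5p was −3.11 there (edgeR adjusted p 2.41e-10) and miR-16-5p −0.94 (edgeR adjusted p 0.00141), beside 3.28 for miR-195a-5p.

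The entries whose levels ran most like the members over the 12 groups were found by the mean absolute distance between log2 group means, each centred on its own mean, among 247 entries with at least 50 CPM on average. miR-497a-5p was the nearest of all to miR-195a-5p, at a distance of 0.24, and the reverse also held. miR-100-5p came next for both, at 0.43 from miR-195a-5p and 0.35 from miR-497a-5p. Then followed miR-676-3p (0.54), miR-151-3p (0.55) and miR-125b-5p (0.56) for miR-195a-5p, and miR-214-3p (0.47), miR-136-5p (0.60) and let-7b-3p (0.64) for miR-497a-5p. The median distance of all entries compared was 1.47 and 1.48. For miR-497a-3p, miR-195a-5p ranked 11th nearest, at 0.58. Groups share library sets and depth, and the lavage fluid groups include the contrast that picked the members, so these distances are a description.

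**Figure D4:**
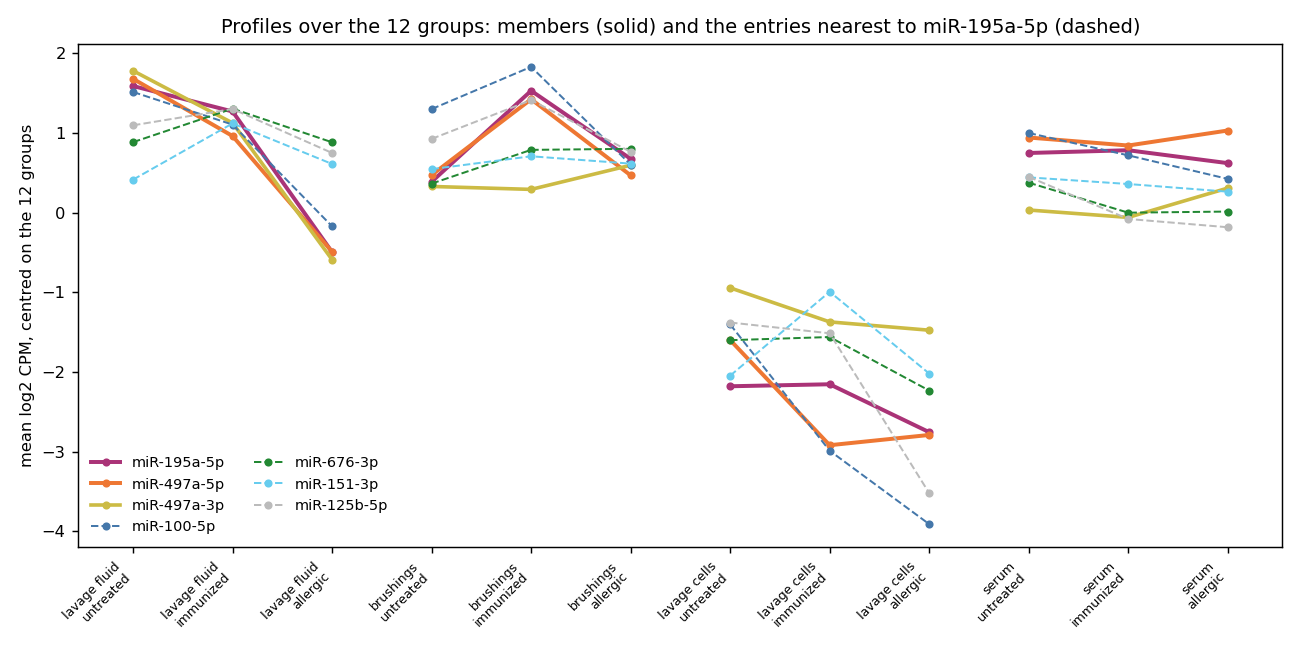
Mean log2 CPM in the 12 groups, each line centred on its own mean, for the 3 members (solid) and the 4 other entries nearest to miR-195a-5p (dashed). miR-195a-5p and miR-497a-5p run together at a mean distance of 0.24, and all lines drop in lavage cells.

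Of these neighbours miR-100-5p, miR-125b-5p and miR-214-3p belong to a list of 14 microRNAs common in fibroblasts, smooth muscle and vessels. That list also holds miR-143-3p, miR-145a-5p and miR-199b-5p. The neighbours miR-676-3p, miR-151-3p, miR-136-5p and let-7b-3p are not on it. In untreated, immunized and allergic lavage fluid miR-676-3p had a mean log2 CPM of 7.18, 7.60 and 7.18, and miR-151-3p 7.90, 8.61 and 8.10. In allergic lavage fluid 8 of the 11 list members that passed the filter fell, where 14.2% of entries did, with a median of −0.92. The list was chosen with earlier results of these data known, and the neighbours partly by their levels in these lavage fluid groups. The falls in lavage fluid are therefore no independent check. miR-199b-5p fell by 1.65 (SE 0.42, edgeR adjusted p 0.0110), miR-100-5p by 1.64 (SE 0.34, edgeR adjusted p 0.00360), miR-214-3p by 1.27 (edgeR adjusted p 0.00652), miR-145a-5p by 0.99 (edgeR adjusted p 0.0235) and miR-125b-5p by 0.53 (edgeR adjusted p 0.0159). The call of miR-145a-5p was lost without immunized replicate 1, immunized replicate 4 or allergic replicate 1 (edgeR adjusted p 0.0581, 0.0664 and 0.0601). In lavage cells 4 of 7 fell, where 26.7% did, with a median of −1.96. miR-145a-5p fell by 3.07 (edgeR adjusted p 0.0173) and miR-125b-5p by 1.96 (edgeR adjusted p 5.94e-06) there, beside −0.47 for miR-195a-5p. Without allergic lavage cell replicate 6 miR-145a-5p was −2.62 (edgeR adjusted p 0.0520), and without the filter the edgeR adjusted p was 0.0828. In brushings miR-145a-5p was the only one called, with a fall by 1.25 (edgeR adjusted p 0.0301), where 0.327% of entries fell. That call was lost without library set in the fit (edgeR adjusted p 0.858) and without immunized replicate 1 (0.191), immunized replicate 2 (0.529) or allergic replicate 2 (0.259). In serum none of the 14 was called.

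Across non-allergic compartments all 14 were lower in lavage cells than in serum, where 39.9% of entries were, with a median of −3.05 against −0.28 over all entries. They were also all lower there than in brushings, with a median of 4.00 for brushings against lavage cells, where 36% were called higher. The summed level of the fibroblast and smooth muscle markers was 15236 to 89242 CPM in non-allergic brushings, 6821 to 11255 in serum and 153 to 8585 in lavage cells. The brushings also held 127252 to 148847 CPM of the epithelial markers, against 13582 to 36546 in lavage cells, and lavage cells held 38788 to 51519 CPM of the hematopoietic markers, against 3561 to 5414 in brushings. The immunized lavage cell library with the highest fibroblast sum, replicate 4, was also the one with 386 CPM of miR-195a-5p. In the untreated and allergic lavage cells other libraries led, with the fibroblast sum highest in replicate 1 and replicate 4 and miR-195a-5p in replicate 2 and replicate 6. The part of these cell types in the member levels was not tested.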

How the data were processed

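The authors deposited expected counts per miRNA in 3 tables, exceRpt output by name, and cutadapt, DESeq2 and build mm10 are listed in the submitters' processing notes, with no versions. No source used here names the aligner. Counts were rounded (4.40% of values were not whole), and an entry missing from a table was taken as 0. edgeR 4.0.16 (R 4.3.3) was run per comparison with TMM factors, filterByExpr at a minimum count of 10, library set as covariate, the robust quasi-likelihood test and Benjamini-Hochberg adjustment over all entries tested, with calls at 0.05. DESeq2 1.42.0 was an alternative. The scripts were tested on simulated data. Named entries were the members, their locus, seed family and stromal lists, the 3 lavage fluid values next below the members in size, and the 5 nearest profiles. Members and lists were chosen with earlier results of these data known. p-values measure the spread between libraries, which may be technical where separate animals are not stated.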

Additional observations from a re-analysis of the deposited data

Results flagged for a closer look

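A total of 30 sets of values was checked, each from 1 group of 4 to 7 libraries. In 7 of them 1 library lay far from the rest of its group by Dixon's test at 95%. For normally distributed values chance does this in about 1 group in 20. The values here were not log-transformed, some came from very few counts, and the sets share libraries, so that rate need not hold. miR-195a-5p was 2131 CPM in immunized lavage fluid replicate 4, where the next library held 815. In immunized serum replicate 3 it was 1017 CPM, with the next at 624. miR-497a-5p was 126 CPM in immunized lavage cell replicate 4, with the next at 20.2. miR-497a-3p was 15.6 CPM in immunized lavage cell replicate 1, which was 3 counts where the others had 0. It was 11.2 CPM in allergic lavage cell replicate 5, from 2 counts, and 31.5 CPM in allergic serum replicate 1, with the next at 18.6. The share of the seed family held by the members was 1.25% in allergic lavage fluid replicate 3, with the next at 0.727%.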

How the results depend on the processing

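The values of the members in lavage fluid moved little, from −2.31 to −2.09 for miR-195a-5p and from −2.28 to −2.0 for miR-497a-5p over 8 alternatives, and −2.25 to −1.82 and −2.22 to −1.74 with each library left out. The differences of both 5p strands between lavage cells and serum and between lavage cells and brushings kept their calls and directions under every alternative run. Of the alternatives to member values and ratios, 1141 counted as unchanged, 62 turned direction, 14 lost a call and 3 gained one. Unchanged meant the same direction and the same side of the threshold. For the selecting contrast, which has no test, it meant the same direction and a move below 1 replicate SD (0.78 for miR-195a-5p, 0.77 for miR-497a-5p). A value left without an adjusted p also counted as unchanged where the main fit had no call. The values that turned were changes with no call, and their cause was not tested. In serum, scaling by total count gave −0.048 for miR-497a-5p and 0.011 for miR-497a-3p. For the latter no filter gave 0.047, and the replicate block, described below, gave 0.41. For miR-497a-3p between brushings and serum, total count scaling gave 0.65, DESeq2 size factors 0.059, DESeq2 0.089 and leaving out erythroid entries 0.023. Between lavage cells and serum its call was lost with total count (−1.20), DESeq2 size factors (−1.76) and without erythroid entries (−1.78). Between lavage fluid and serum total count scaling gave miR-195a-5p 1.35, beside a median of 0.70 over all entries. That pair includes libraries that picked the members, so a call there, though counted above, is not evidence of a difference. For the interaction of brushings and lavage cells, leaving out erythroid entries gave −0.17 for miR-195a-5p, and total count, DESeq2 size factors and DESeq2 gave 0.36, 0.11 and 0.080 for miR-497a-5p. The guide ratio differed by 0.21 (lavage fluid and brushings) and −0.079 (brushings and lavage cells) in allergic libraries, and by −0.047 (lavage fluid and lavage cells) with 1 added to each count. The 9 entries called in brushings became 16 without the filter, 0 without library set and 0 with the replicate block, the 35 of the brushings and lavage cell interaction 14 with total count, and the 0 of brushings and serum 4 with total count and 4 with DESeq2.

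With each library left out in turn, values ran between these limits. For the allergic change they were −0.059 and 0.20 for miR-497a-5p and −0.25 and 0.21 for miR-497a-3p in serum, −0.88 and −0.41 for miR-497a-5p in brushings, and 0 and 27 for the entries called in brushings. For compartments they were −0.27 and 0.89 (miR-497a-5p, lavage fluid and brushings), 0.96 and 1.72 (miR-497a-3p, lavage fluid and serum), −0.047 and 0.68 (miR-497a-5p, lavage fluid and serum), 1.28 and 2.83 (miR-497a-3p, brushings and lavage cells), −0.28 and 0.67 (miR-195a-5p, brushings and serum), −0.47 and 0.71 (miR-497a-5p, brushings and serum), −0.36 and 0.33 (miR-497a-3p, brushings and serum), and −2.92 and −1.47 (miR-497a-3p, lavage cells and serum). Entries called between lavage fluid and brushings ran from 17 to 45. For interactions they were −0.12 and 0.52 (miR-195a-5p, serum and lavage cells), −0.33 and 0.26 (miR-195a-5p, brushings and lavage cells), −0.33 and 0.019 (miR-195a-5p, brushings and serum), −0.52 and 0.30 (miR-497a-5p, brushings and lavage cells), and 6 and 40 (entries called, brushings and lavage cells). For the guide ratio they were −0.23 and 0.30 (lavage fluid and lavage cells) and −0.13 and 0.39 (brushings and lavage cells).

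Same-numbered libraries did not all deviate together (correlations over 0.1 in 10 of 14 pairs of lavage fluid and lavage cells, 2 of 14 with serum for the fluid and 3 of 14 for the cells), so the numbers were not taken to pair samples. Within a compartment the replicate block put a term for each replicate number in place of library set. It tied libraries with equal numbers from different treatment groups, and so from different mice. Allergic libraries whose number no non-allergic library had added nothing to the contrast. Values under the block therefore rest on fewer libraries and on no known pairing. With the replicate block miR-195a-5p in lavage cells was −1.05 (edgeR adjusted p 0.156). The replicate block also ended the calls of miR-16-5p (0.38), miR-199b-5p (−1.50), miR-214-3p (−1.33), miR-145a-5p (−0.97), miR-125b-5p (−0.54) and miR-503-5p (−2.24) in lavage fluid, of miR-15a-5p (0.57) in lavage cells and of miR-145a-5p (−2.16) in brushings. In lavage cells 1 to 44 counts of miR-497a-5p were read per library, which limits what can be said of it there.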

Other observations

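miR-497b, whose hairpin lies on the strand opposite Mir497, was read too little to compare. It had 1 count in non-allergic and 2 in allergic lavage fluid, 0 in brushings, 1 in allergic lavage cells, 2 in non-allergic serum and 7 in allergic serum.

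In 2 of the 3 groups the lavage fluid and lavage cell libraries highest in miR-195a-5p had the same number. Untreated replicate 2 had the most miR-195a-5p among the untreated libraries of both (2732 and 137 CPM), and immunized replicate 4 among the immunized libraries of both (2131 and 386 CPM). In the allergic group they differed, with replicate 3 highest in lavage fluid (481 CPM) and replicate 6 in lavage cells (195 CPM). miR-497a-3p was highest in immunized replicate 4 in lavage fluid (46.8 CPM) but had 0 counts in that replicate of lavage cells. No label says whether these came from the same mouse.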
